A study of Mus musculus with 13 samples.

Results

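The genes described here are Kdr, Flt1, Tek, Tie1, Cdh5, Pecam1, Cldn5, Esam, Eng and Vegfa, the receptors and junction proteins of blood vessel lining cells together with 1 ligand. They were taken as every probe set on the array whose platform symbol was 1 of these names, which gave 16 probe sets for 10 genes of the 18193 with a symbol. The array was an Affymetrix mouse array with 45101 probe sets, hybridised once per mouse. The 13 samples were 6 medulloblastomas of Ptch1(+/-) mice (Ptch1 MB), 3 samples of granule neuron precursor cells of wildtype mice at postnatal day 7 (P7 GNPC) and 4 samples of embryonic dorsal brainstem of wildtype mice at E16.5 (E16.5 DBS). No sample had been treated, and no mouse gave more than 1 of them. Age and tissue go together in the normal groups, and genotype and tissue in the tumours, so these cannot be told apart. The Ctnnb1 tumours of the series were not analysed here.

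Endothelial cells line blood vessels and respond to growth factors through receptor tyrosine kinases on their surface. Vegfa, secreted by surrounding cells, binds Kdr (VEGF receptor 2), the main signalling receptor, and Flt1 (VEGF receptor 1), which binds it tightly and can act as a decoy. Angiopoietins bind Tek (Tie2), and Tie1 is its partner receptor. Cdh5 (VE-cadherin), Pecam1, Esam and Cldn5 hold neighbouring endothelial cells together, Cldn5 being the main tight junction claudin of brain vessels, and Eng (endoglin) is a co-receptor for TGF-beta family ligands. In brain the vessels form a barrier, and the vessels of medulloblastoma differ in this property between tumour types.

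The samples were first set against marker genes of their labels. Atoh1, the transcription factor that defines granule neuron precursors, averaged 8637 ± 1944 in Ptch1 MB (SD, n = 6), 1048 ± 214 in P7 GNPC (n = 3) and 102 ± 46.5 in E16.5 DBS (n = 4), in the arrays' intensity units. Hoxa5, a hindbrain position gene, averaged 8.43 ± 5.32 in Ptch1 MB and 7.30 ± 1.77 in P7 GNPC, against 7239 ± 1286 in E16.5 DBS. The P7 GNPC samples also carried Purkinje cell genes, Pcp2 averaging 538 ± 627 in Ptch1 MB, 6015 ± 639 in P7 GNPC and 61.8 ± 16.9 in E16.5 DBS. E16.5 DBS sample 2 stood apart in RNA quality. Its log2 ratios of the 3' to the 5' control probe sets were 2.37 for Gapdh and 2.49 for actin, while the other 12 arrays reached at most 1.74. The summed intensity of 6 choroid plexus genes was 797.2 in that sample and 14853 to 29664 in the other brainstem samples. This sum was 30640 in P7 GNPC sample 2, 1752.5 to 2861.7 in the other P7 GNPC samples and 1143 to 12153 in tumours. The part of this in the members' differences was not tested. All values are linear intensities scaled by the authors to 1 trimmed mean, so the level of 1 gene is not set against that of another. Precision here is limited by how few arrays each group has. In bulk tissue, fewer endothelial cells and less RNA per endothelial cell cannot be told apart.

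Intensities were compared as log2(value + 18) in 1 limma model over the 13 arrays and 12270 genes. A gene was called changed at an adjusted p (Benjamini-Hochberg over all genes) below 0.05 with at least a 2-fold difference. The fold on this scale understates the change of dim genes. A gene was tested if its brightest probe set exceeded the array median, which was 91.3 to 117.5, in at least 3 arrays. Of the 10 genes, 8 were tested. Tie1 and Pecam1 stayed below the median on every array and were not.

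In the Ptch1 tumours, Kdr, Tek, Cldn5 and Eng were lower than in P7 GNPC, by 2.21-fold to 4.49-fold. Against E16.5 DBS, Kdr, Eng, Flt1 and Vegfa were lower, by 2.11-fold to 5.92-fold. Kdr and Eng were thus lower against both normal tissues, Eng within a margin that other settings undo, while Tek and Cldn5 were called only against the postnatal cells, and Flt1 and Vegfa only against the embryonic brainstem. The difference between these comparisons was not tested, and they share the tumour arrays. The 4 genes lower than in P7 GNPC are 4 of 8 tested, where 14.2% of all genes tested were called lower. The 4 genes lower than in E16.5 DBS are again 4 of 8, beside 20.9% of all genes. None was called higher in tumours in either comparison, beside 6.59% of all genes against P7 GNPC and 15.5% against E16.5 DBS. The median log2 difference of the 8 genes was -1.0 against P7 GNPC and -0.99 against E16.5 DBS, and that of all genes tested was -0.03 and 0.00.

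**Figure D1:**
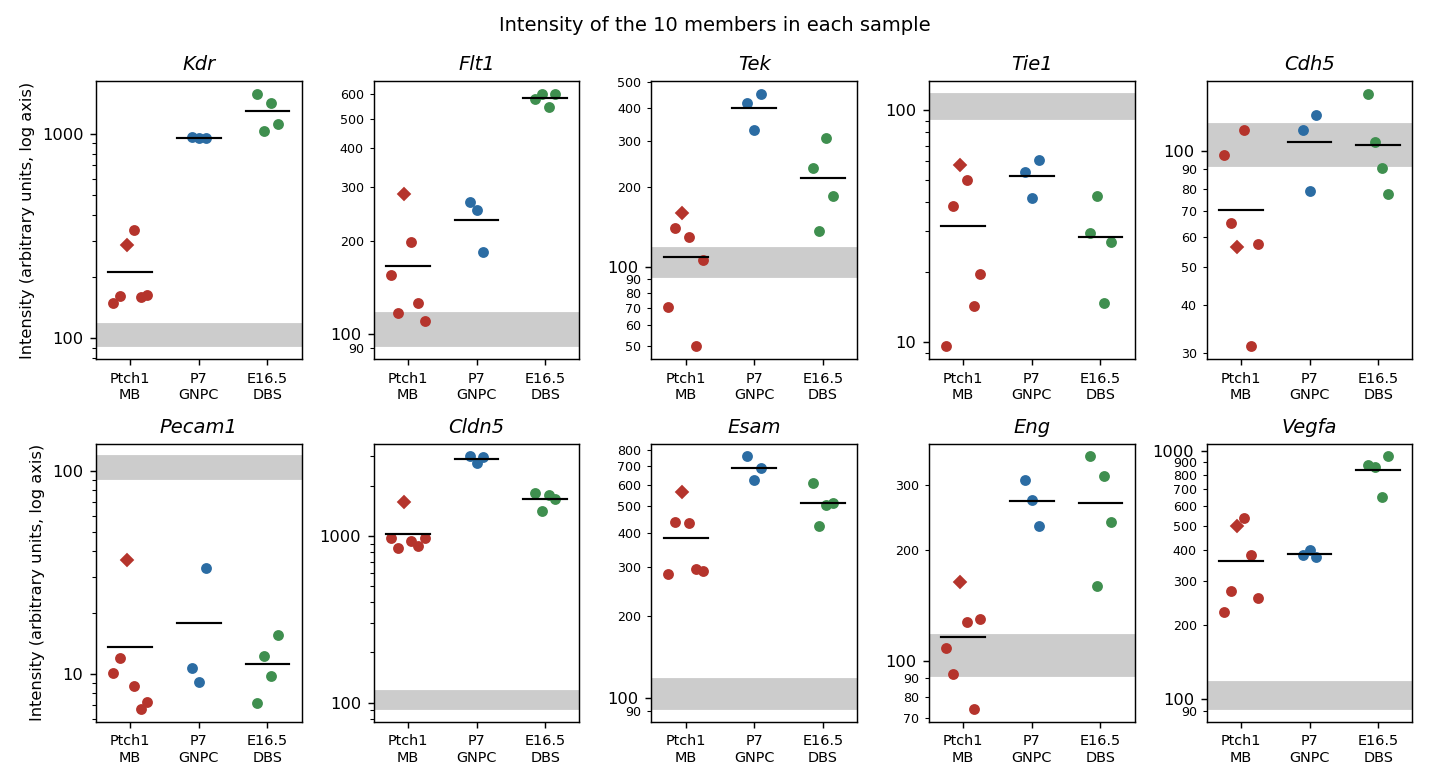
Intensity of each of the 10 genes in every sample (arbitrary units, log axis), by its brightest probe set. Points are samples, black lines group means, the diamond is tumour 3, and the grey band is the range of the array medians, 91.3 to 117.5. All 6 tumours lie below all normal samples for Kdr, and Tie1 and Pecam1 lie below the band in every sample.

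The 4 genes called lower in tumours than in P7 GNPC are shown first by the DNA just before a listed transcript start, since they are the members called in that comparison. The table of RefSeq promoters, build GRCm38.p6, matched 7 of the 10 genes (Kdr, Flt1, Tek, Tie1, Cldn5, Eng and Vegfa). The sequences are the 250 bases before the transcript start listed there, written 5' to 3' on the gene's strand. The annotated span of Kdr reaches further upstream, to 75979072, so its window lies inside the gene. Most of the Tek window also lies inside that gene's span, which begins at 94739086. The Cldn5 and Eng windows end where the gene's span begins. Kdr is at chr5:75978456-75978705 on the minus strand, Tek at chr4:94739039-94739288 on the plus strand, Cldn5 at chr16:18776597-18776846 on the plus strand and Eng at chr2:32646345-32646594 on the plus strand. Capitals mark the GC box GGGCGG and the ETS-type core AGGAAG, each on either strand.
Kdr: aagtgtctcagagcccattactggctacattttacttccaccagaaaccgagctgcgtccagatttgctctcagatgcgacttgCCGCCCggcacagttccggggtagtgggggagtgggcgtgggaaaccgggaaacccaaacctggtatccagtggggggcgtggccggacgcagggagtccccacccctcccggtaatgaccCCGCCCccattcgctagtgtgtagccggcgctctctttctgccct
Tek: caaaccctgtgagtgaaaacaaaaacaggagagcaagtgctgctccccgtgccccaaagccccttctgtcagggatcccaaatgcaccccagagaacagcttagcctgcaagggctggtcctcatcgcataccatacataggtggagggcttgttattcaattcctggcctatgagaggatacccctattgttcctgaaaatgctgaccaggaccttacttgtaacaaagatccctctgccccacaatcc
Cldn5: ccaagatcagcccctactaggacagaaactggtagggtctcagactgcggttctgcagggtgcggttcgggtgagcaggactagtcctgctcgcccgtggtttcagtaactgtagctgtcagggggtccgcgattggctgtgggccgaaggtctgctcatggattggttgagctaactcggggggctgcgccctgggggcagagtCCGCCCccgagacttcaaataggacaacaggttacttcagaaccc
Eng: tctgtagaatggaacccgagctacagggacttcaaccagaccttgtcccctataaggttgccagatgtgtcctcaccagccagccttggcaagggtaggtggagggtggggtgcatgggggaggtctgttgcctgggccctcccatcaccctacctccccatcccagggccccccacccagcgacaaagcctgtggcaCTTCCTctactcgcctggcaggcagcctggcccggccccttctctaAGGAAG

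GC boxes bind Sp1-type factors and ETS cores bind the ETS factors common in endothelial cells. The Kdr window held the GC box with its first base 166 and 45 bases before the start, and the Cldn5 window held it 45 bases before the start. The Eng window held AGGAAG 52 and 6 bases before the start, and the Tek window held neither. Over all 32851 promoter windows of the table, 32.7% held the GC box and 29.5% held AGGAAG, so both are common. A further ETS core, written CGGAAG, was in 13.6% of all windows, and among the 7 genes it was in that of Tie1. The core of GATA-type factors, written AGATAA, was in 9.99% of all windows and in 1 of the pair of Vegfa windows. The TATA box, searched as TATAAA, was in 12.4% of all windows and in that of Flt1. The ETS cores share their last 5 letters and were counted separately, both strands were searched, and a match is a description of the letters. The windows of the 4 genes were 51.2% to 62.4% G and C, beside a median of 52.4% over all windows.

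Vegfa is the ligand of the group and was measured by probe set 1420909_at. Its intensities in the 6 tumours were 224, 272.4, 497.6, 535.4, 380.1 and 255.3, with a median of 326.25. They were 381.7, 397.9 and 373.3 in P7 GNPC and 878.1, 859.6, 654.1 and 951 in E16.5 DBS. Every tumour lay below every brainstem sample, while the P7 GNPC samples sat inside the tumour range. Vegfa was 2.35-fold lower in tumours than in E16.5 DBS (log2 difference -1.23 ± 0.22 SE, limma adjusted p = 0.000160). Against P7 GNPC the log2 difference was -0.16 (95% interval -0.68 to 0.36, limma adjusted p = 0.609), and it is 0.07 once all arrays are scaled to the same median. The second Vegfa probe set, 1451959_a_at, was under the array median on all 13 arrays.

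Kdr had the largest difference among the tested members in both tumour comparisons. Its probe set 1449379_at gave 148.9, 161.6, 286.4, 340.1, 159.9 and 162.5 in the 6 tumours, with a median of 162.05. It gave 966.1, 948.8 and 955.4 in P7 GNPC, and 1569.9, 1036.8, 1415.7 and 1118.9 in E16.5 DBS. The tumours did not overlap either normal group, and tumours 3 and 4 were the highest of them, as they were for Vegfa. Kdr averaged 209.9 ± 82.0 in tumours (SD, n = 6) and 957 ± 8.73 in P7 GNPC (n = 3), 4.49-fold lower (log2 difference -2.17 ± 0.24 SE, limma adjusted p = 6.46e-06). Against 1285 ± 249.96 in E16.5 DBS (n = 4) it was 5.92-fold lower (limma adjusted p = 7.59e-08).

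Flt1 had the same order of group means as Kdr, lowest in tumours and highest in E16.5 DBS. By its brightest probe set, 1451756_at, it read 156, 117.1, 285.6, 199.3, 126.5 and 110.5 in the tumours, with a median of 141.25. P7 GNPC gave 267.2, 251.8 and 184.1, and E16.5 DBS gave 577.4, 600.4, 546.2 and 601.8. The tumours overlapped P7 GNPC and lay apart from E16.5 DBS. Flt1 was 3.42-fold lower in tumours than in E16.5 DBS (log2 difference -1.77 ± 0.22 SE, limma adjusted p = 4.10e-06). Against P7 GNPC the log2 difference of -0.51 had a 95% interval of -1.03 to 0.00 and was not called (limma adjusted p = 0.0906). The probe set 1419300_at gave -1.20 against E16.5 DBS, called, and -0.63 against P7 GNPC, not called. Probe set 1440926_at exceeded the array median in all 4 E16.5 DBS samples, 1 tumour and 0 P7 GNPC samples, so it was tested only because of the brainstem, and its difference from E16.5 DBS (-1.43) is a description. Its difference from P7 GNPC was -0.36. The remaining probe set, 1454037_a_at, was above the array median on 1 array and was not tested.

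Tek, the angiopoietin receptor, was highest in P7 GNPC. Its intensities were 70.4, 140.3, 159.5, 130.2, 50 and 106.4 in tumours, with a median of 118.3. They were 418.8, 331.4 and 453.4 in P7 GNPC, and 237, 136.5, 307.7 and 185.8 in E16.5 DBS. The lowest P7 GNPC sample was above the highest tumour, and E16.5 DBS sample 2 fell within the tumour range. Tek was 3.44-fold lower in tumours than in P7 GNPC (log2 difference -1.78 ± 0.30 SE, limma adjusted p = 0.000234). Against E16.5 DBS the log2 difference of -0.90 ± 0.28 SE passed on its limma adjusted p of 0.00871 but fell short of 2-fold. It reaches -1.09 without E16.5 DBS sample 2 and -1.02 without tumour 3, and is then called. Tie1, its partner, read 9.6 to 58 in tumours, 41.6 to 60.7 in P7 GNPC and 14.7 to 42.6 in E16.5 DBS, and all 3 ranges overlap at these levels below the array median.

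Eng was lower in tumours than in both tissues, with margins near the 2-fold limit. Probe set 1417271_a_at gave 108.4, 92.3, 164, 127.3, 74 and 129.7 in tumours, with a median of 117.85. It gave 311.1, 274.1 and 232 in P7 GNPC, and 359.8, 159.6, 318.3 and 238.5 in E16.5 DBS. The tumours lay below all P7 GNPC samples, while tumour 3 was above E16.5 DBS sample 2. Eng was 2.21-fold lower than in P7 GNPC (log2 difference -1.14 ± 0.25 SE, limma adjusted p = 0.00176) and 2.11-fold lower than in E16.5 DBS (-1.08 ± 0.23 SE, limma adjusted p = 0.000706). The other Eng probe set, 1432176_a_at, gave -1.15 against E16.5 DBS, called, and -0.76 against P7 GNPC, not called. The call against P7 GNPC is lost with a pseudocount of 64, with equal array medians, with quantile normalization and with the mean of probe sets, at log2 differences of -0.91 to -0.95, and the call against E16.5 DBS with the first and second of these (-0.87 and -0.97). Leaving out tumour 5, E16.5 DBS sample 1 or E16.5 DBS sample 3 moved the log2 difference from E16.5 DBS to -0.97, -0.92 or -0.98, short of 2-fold.

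Among the junction genes, Cldn5 carried the clear difference. Its intensities in the tumours were 976.8, 848.8, 1588.1, 935.9, 868.5 and 970.8, with a median of 953.35. They were 3001.5, 2724.5 and 2982.5 in P7 GNPC and 1808.1, 1405.7, 1768.8 and 1658.1 in E16.5 DBS. The tumours lay below all P7 GNPC samples, and tumour 3 alone reached into the E16.5 DBS range. Cldn5 was 2.85-fold lower in tumours than in P7 GNPC (log2 difference -1.51 ± 0.17 SE, limma adjusted p = 7.31e-06). Against E16.5 DBS the log2 difference was -0.70 (limma adjusted p = 0.000821), below the 2-fold limit.

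The other junction genes were not called in any comparison. Esam, an adhesion molecule of endothelial junctions, read 284.3, 438.8, 562.5, 434.1, 296.6 and 289.9 in tumours, with a median of 365.35. It read 761.4, 623.1 and 689.8 in P7 GNPC and 610.7, 423.2, 507.1 and 514.7 in E16.5 DBS. The tumours lay below all P7 GNPC samples with a log2 difference of -0.86 (limma adjusted p = 0.00316), short of 2-fold, and overlapped E16.5 DBS. Cdh5, which exceeded the array median in 1 sample of each group, ranged over 31.2 to 113.7 in tumours, 78.9 to 124 in P7 GNPC and 77.5 to 140.9 in E16.5 DBS. Its log2 difference was -0.54 against P7 GNPC (95% interval -1.16 to 0.09) and -0.51 against E16.5 DBS (-1.08 to 0.06), with limma adjusted p of 0.142 and 0.102. Pecam1 read 6.7 to 36.4 in tumours, 9.1 to 33.3 in P7 GNPC and 7.2 to 15.5 in E16.5 DBS, and these levels allow no comparison.

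Counted by overlap, 5 of the 8 tested genes had all tumours below all P7 GNPC samples (Kdr, Tek, Cldn5, Esam and Eng), beside 24% of all genes tested. Against E16.5 DBS 3 of 8 did (Kdr, Flt1 and Vegfa), beside 28.9% of all genes. Kdr and Eng were called lower against both tissues, 2 of 8, and 11.1% of all genes tested were. By probe set, 4 of the 11 tested were lower against P7 GNPC, beside 12.6% of all probe sets. Of the 10 that pass the intensity filter also without the group in which they are higher, 4 were lower. Against E16.5 DBS, 6 of the 9 that pass in this way were lower, beside 18.2% of all probe sets tested, a share without that restriction.

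**Figure D2:**
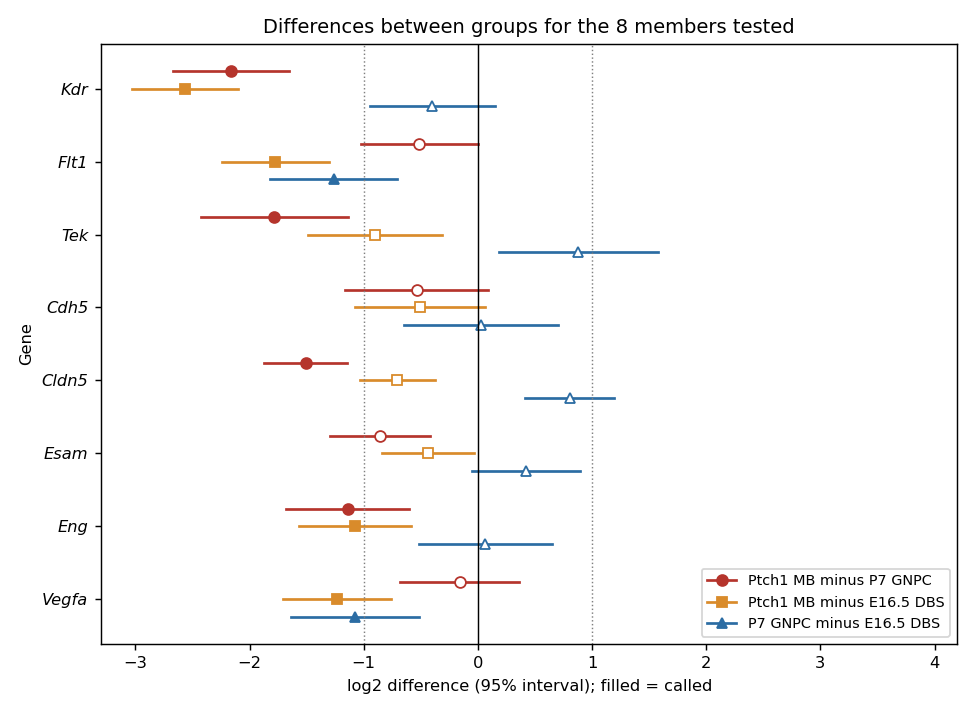
Log2 difference of each tested gene in the 3 comparisons, with its 95% interval. Filled symbols were called and the dotted lines mark 2-fold. Kdr and Eng are called in both tumour comparisons, and Flt1 and Vegfa in both comparisons with E16.5 DBS.

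Between the normal tissues, P7 GNPC had less Flt1 and Vegfa than E16.5 DBS. Flt1 was 2.40-fold lower (log2 difference -1.26 ± 0.26 SE, limma adjusted p = 0.00127) and Vegfa 2.10-fold lower (-1.07 ± 0.26 SE, limma adjusted p = 0.00416), and neither gene's groups overlapped. These are 2 of 8 tested genes, beside 9.68% of all genes called lower, and none was called higher, beside 8.73%. Tek and Cldn5 lay the other way, with log2 differences of 0.88 and 0.80 (limma adjusted p = 0.0401 and 0.00245), short of 2-fold. Counted by overlap, every P7 GNPC sample was below every E16.5 DBS sample for 3 of 8 genes (Kdr, Flt1 and Vegfa), beside 27.3% of all genes, and above for 3 of 8 (Tek, Cldn5 and Esam), beside 28.6%. Kdr had a log2 difference of -0.40 (95% interval -0.95 to 0.15, limma adjusted p = 0.222). Cdh5 and Eng differed by 0.03 and 0.07, and their sign turns under other scalings. By probe set, 2 of the 9 that pass the filter also without the group in which they are higher were lower in P7 GNPC than in E16.5 DBS. Beside this, 7.94% of all probe sets tested were lower, without that restriction.

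Whether the members differed to unequal degrees was asked with ratios of members within an array, taken as differences of log2(value + 18) and little affected by array scaling, by exact two-sided permutation tests. There were 7 ratios in 3 comparisons, 21 tests in all, adjusted by Benjamini-Hochberg. The ratios with Tie1 or Pecam1 stay in that adjustment but are not reported, since both genes were below the array median on every array. The log2 ratio of Vegfa to Kdr was 0.54, 0.69, 0.76, 0.63, 1.16 and 0.60 in the tumours. It was -1.30, -1.22 and -1.31 in P7 GNPC and -0.83, -0.27, -1.09 and -0.23 in E16.5 DBS. No tumour overlapped a normal sample. Over the tumours, Kdr and Vegfa intensities each spread more than 2-fold (2.28-fold and 2.39-fold). The SD of this log2 ratio was 0.23 in tumours, 0.05 in P7 GNPC and 0.43 in E16.5 DBS. The mean difference was 2.01 against P7 GNPC, a 4.02-fold higher ratio, and 1.33 against E16.5 DBS, a 2.52-fold higher ratio, with exact permutation p of 0.0119 and 0.00476. Both are the smallest these group sizes allow, and both adjust to 0.05, which does not pass.

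The ratio of Flt1 to Kdr was higher in tumours as well, by 1.65 on the log2 scale against P7 GNPC and 0.79 against E16.5 DBS. These exact permutation p were again the smallest possible, 0.0119 and 0.00476, and both adjusted to 0.05. The single genes' log2 differences were -2.17 for Kdr beside -0.51 for Flt1 against P7 GNPC, and -2.57 beside -1.77 against E16.5 DBS. Cldn5 over Cdh5 was lower by -0.97 against P7 GNPC (exact permutation p = 0.0476, adjusted 0.111), and the groups overlapped. For Esam and Eng over Cdh5 the differences in the 3 comparisons were -0.60 to 0.39, and their exact permutation p ran from 0.114 to 0.943. Of the 15 tests on genes that passed the intensity filter, 7 had an unadjusted p below 0.05, 6 reached the smallest p possible, and 0 passed after adjustment over the 21. Adjusted over these 15 alone, a choice made after the data were seen, 4 pass: Vegfa over Kdr and Flt1 over Kdr in both tumour comparisons, at 0.0446 against P7 GNPC and 0.0357 against E16.5 DBS. Without E16.5 DBS sample 2, 6 of the 21 pass.

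**Figure D3:**
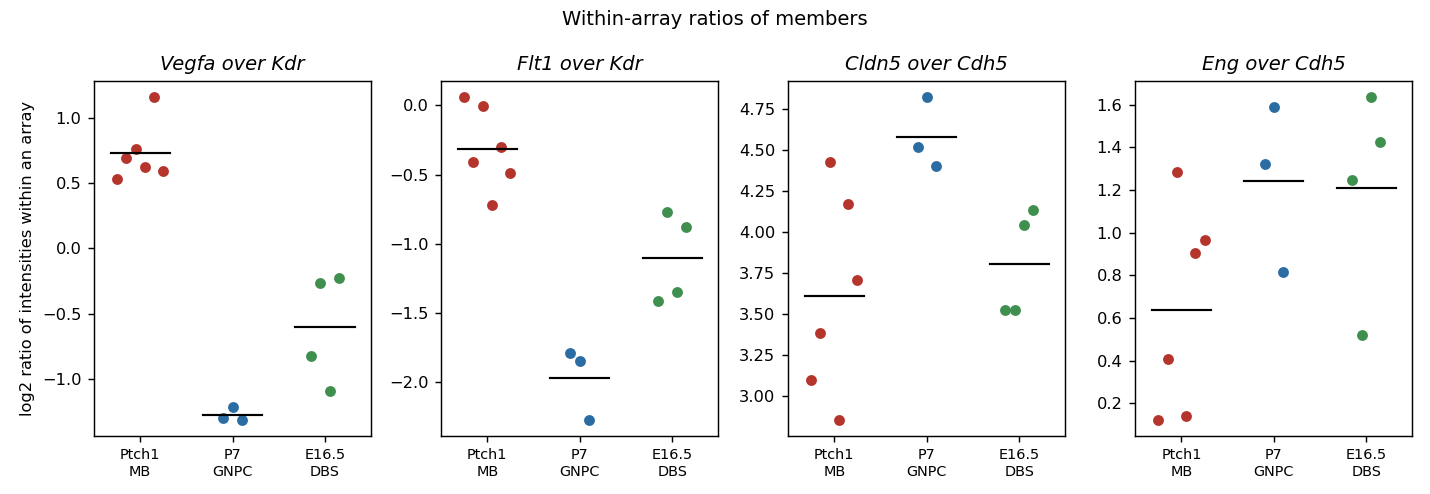
Log2 ratio of 2 genes' intensities within each array, for 4 of the 7 ratios. Points are samples and lines group means. Vegfa over Kdr lies between 0.54 and 1.16 in the 6 tumours and below 0 in every normal sample.

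Of the wider VEGF and angiopoietin pathway, 16 of 20 listed genes were tested, including Kdr, Flt1, Tek and Vegfa. Against P7 GNPC 3 were lower in tumours, 0 higher and 13 not called, beside 14.2% of all genes tested called lower and 6.59% higher. Vegfc, a ligand best known in lymphatic vessels, was the third beside Kdr and Tek, with 249 ± 105 in tumours and 1329 ± 132 in P7 GNPC, 5.41-fold lower (limma adjusted p = 1.30e-05) by a probe set that may match further transcripts. Against E16.5 DBS 5 were lower, 1 higher and 10 not called, beside 20.9% of all genes called lower and 15.5% higher. The neuropilins, VEGF co-receptors that neurons also carry, were lower: Nrp2 averaged 132 ± 27.6 in tumours and 1276 ± 257 in E16.5 DBS (8.65-fold, limma adjusted p = 1.02e-09), and Nrp1 630.4 ± 162 and 2843 ± 1098 (limma adjusted p = 2.22e-06). Angpt1, the activating ligand of Tek, was the gene that was higher, with 793 ± 321 in tumours and 164 ± 8.51 in E16.5 DBS, 4.16-fold (limma adjusted p = 4.16e-06). Between the normal tissues 4 were lower in P7 GNPC and 2 higher, Angpt1 (4.98-fold) and Vegfc (3.28-fold). The shares of all genes there were 9.68% lower and 8.73% higher. The median log2 difference of the list was -0.41, -0.56 and -0.30 in the 3 comparisons.

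Other endothelial markers that were called were lower in the tumours, with 1 exception in each comparison. Of 28 tested, 10 were lower and 1 higher than in P7 GNPC (median log2 difference -0.73), and 8 were lower and 1 higher than in E16.5 DBS (median -0.53). Among all genes tested, 14.2% were called lower and 6.59% higher against P7 GNPC, and 20.9% and 15.5% against E16.5 DBS. Lyve1 and Tal1, called lower in both comparisons, averaged 20.4 ± 21.4 and 37.2 ± 17.8 in tumours. They passed the intensity filter through the normal samples alone, so the counts of this list are a description. Sox17, an arterial transcription factor, was 3.08-fold lower than in P7 GNPC and 4.52-fold lower than in E16.5 DBS (limma adjusted p = 0.000220 and 1.83e-06). Plvap, a protein of fenestrated vessels, averaged 87.4 ± 49.9 in tumours and 294 ± 45.1 in P7 GNPC (3.46-fold lower, limma adjusted p = 0.00574). Sox18, a partner of Sox17 in endothelium, went against them: it was 3356 ± 244 in tumours, against 289.6 ± 80.3 in P7 GNPC and 241 ± 30.8 in E16.5 DBS. These are 11.2-fold and 13.1-fold higher (limma adjusted p = 3.02e-09 and 2.46e-11). Its intensity in the single tumours, 3004.3 to 3580.6, spread little, unlike that of the members. Between the normal tissues 26 of the 28 were not called, while 9.68% of all genes were called lower in P7 GNPC and 8.73% higher.

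Further junction and adhesion genes, many of them carried by other cells as well, did not go 1 way. Of 21 tested, 5 were lower and 1 higher in tumours than in P7 GNPC (median log2 difference -0.10), and 5 lower and 3 higher than in E16.5 DBS (median -0.23). Beside these, 14.2% of all genes were called lower and 6.59% higher against P7 GNPC, and 20.9% and 15.5% against E16.5 DBS. Their summed intensity was 41476 to 54929 in tumours, 39958 to 43649 in P7 GNPC and 39236 to 43045 in E16.5 DBS. Cldn3, a claudin mainly of epithelia, averaged 8.37 ± 2.92 in tumours, against 313 ± 51.5 in P7 GNPC and 105 ± 26.0 in E16.5 DBS, 12.5-fold and 4.62-fold lower. At this tumour level it passed the intensity filter through the normal samples alone. So did Cldn1, called lower against E16.5 DBS alone, at 28.95 ± 26.4 in tumours. The folds of Cldn3 and the counts of this list are thus a description. F11r (JAM-A), a tight junction adhesion molecule, was 2.53-fold and 2.12-fold lower (limma adjusted p = 0.00166 and 0.00215). The genes that were higher, named after their values were seen, were Itgav, an integrin subunit, in both comparisons (2.01-fold and 2.02-fold), and Jam3 (2.10-fold) and Icam1 (2.17-fold) against E16.5 DBS alone; whether the comparisons differ was not tested.

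Genes listed for the basement membrane and for pericytes and smooth muscle were lower too where called, with 1 exception. Of 12 basement membrane genes tested, 7 were lower and 1 higher than in P7 GNPC and 7 lower and 0 higher than in E16.5 DBS. Nid1 (nidogen), which links laminin and collagen IV, averaged 737 ± 416 in tumours and 4619.7 ± 704 in P7 GNPC, 6.83-fold lower (limma adjusted p = 1.22e-05), and was 3.50-fold lower than in E16.5 DBS. Of 10 genes listed for pericytes and smooth muscle and tested, 5 were lower than in P7 GNPC, 3 lower than in E16.5 DBS and 0 higher. The 3 include Pdgfb, the gene of the ligand PDGF-B and not a pericyte marker, at 90.4 ± 28.5 in tumours and 345 ± 36.4 in E16.5 DBS. Set beside both lists, all genes tested were called lower in 14.2% and 20.9% of cases, and higher in 6.59% and 15.5%. Pdgfrb, the pericyte receptor for PDGF-B, averaged 193 ± 89.5 in tumours, against 627 ± 62.8 in P7 GNPC and 587 ± 77.0 in E16.5 DBS, 3.26-fold and 3.05-fold lower (limma adjusted p = 0.000145 and 3.86e-05). Rgs5, another pericyte gene, was 2.12-fold lower than in P7 GNPC (limma adjusted p = 0.00926), and its log2 difference from E16.5 DBS was -0.31 (limma adjusted p = 0.344). The medians of the 2 lists were -1.04 and -0.95 against P7 GNPC, and -1.19 and -0.80 against E16.5 DBS.

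**Figure D4:**
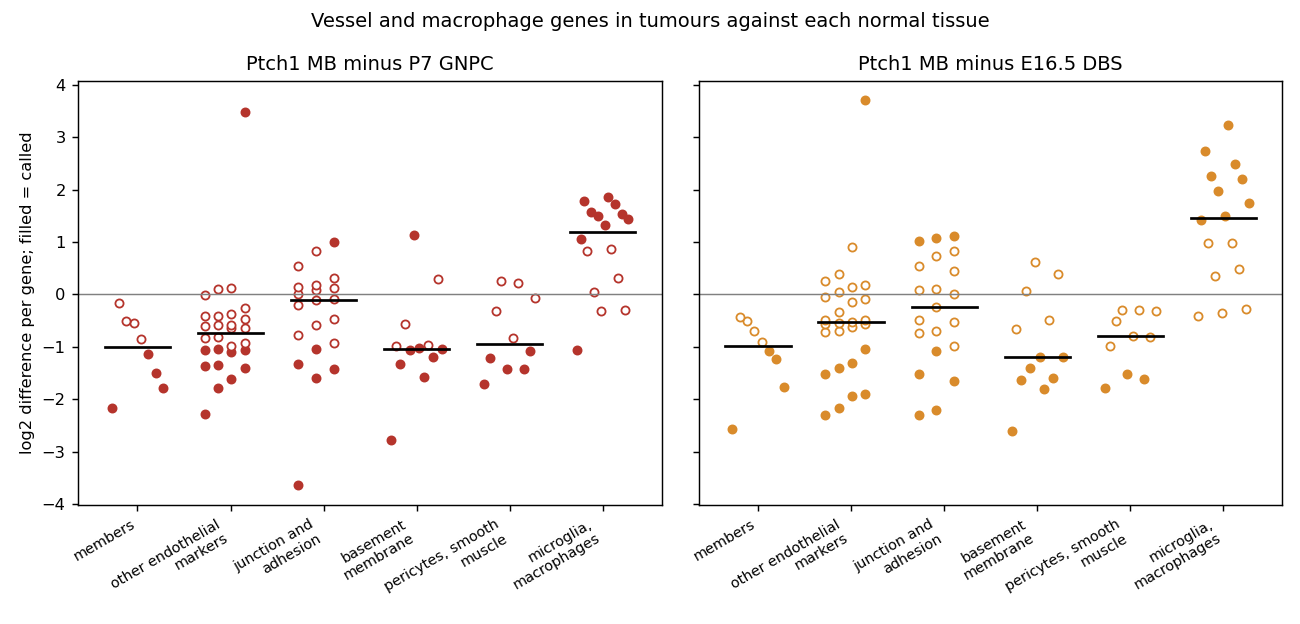
Log2 difference of each tested gene in 6 lists, for tumours against P7 GNPC (left) and E16.5 DBS (right). Filled points were called and lines are list medians. The members, other endothelial markers, basement membrane and pericyte genes have medians between -0.53 and -1.19, the junction and adhesion genes -0.10 and -0.23, and the macrophage genes 1.19 and 1.46.

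Genes of other cell types differed between the groups as well, not all in the members' direction. Over all genes tested, 14.2% were called lower in tumours than in P7 GNPC and 6.59% higher. Against E16.5 DBS these shares were 20.9% and 15.5%. Of 13 genes of meninges and fibroblasts tested, 8 were lower in tumours than in P7 GNPC and 6 lower than in E16.5 DBS, with a summed intensity of 8375 to 13842 in tumours, 23418 to 27587 in P7 GNPC and 13281 to 19936 in E16.5 DBS. Microglia and macrophage genes were the reverse, 9 of 16 being higher and 1 lower than in P7 GNPC and 9 of 16 higher than in E16.5 DBS, with sums of 7757 to 21971 in tumours, 7469 to 8998 in P7 GNPC and 7144 to 7251 in E16.5 DBS. Cd68, a macrophage lysosomal gene, averaged 1189 ± 438 in tumours and 300.3 ± 70.9 in P7 GNPC, 3.65-fold higher (limma adjusted p = 6.56e-05). Of 5 blood and platelet genes tested, 2 were lower and 0 higher in tumours than in P7 GNPC, and 2 lower and 1 higher (Hba-a2, a haemoglobin chain, 2.07-fold) than in E16.5 DBS, with sums of 465.4 to 725.3 in tumours, 955.5 to 1207 in P7 GNPC and 1101 to 1998 in E16.5 DBS. Of 6 Purkinje cell genes tested, 5 were lower and 0 higher in tumours than in P7 GNPC, and 2 lower and 1 higher (Pcp2, 3.66-fold) than in E16.5 DBS. Every gene counted in these lists passed the intensity filter, some of them through the normal samples alone, and their part in the members' differences was not tested.

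The response to low oxygen, of which Vegfa is a target, was described by 23 tested genes. Against P7 GNPC 2 were lower and 1 higher in tumours, and against E16.5 DBS 10 were lower and 2 higher, with medians of -0.20 and -0.76. The shares of all genes called lower were 14.2% and 20.9%, and higher 6.59% and 15.5%. Pdk1, a kinase that diverts pyruvate from mitochondria, averaged 137 ± 66.2 in tumours, 473 ± 67.3 in P7 GNPC and 1100.2 ± 137 in E16.5 DBS. It was 3.40-fold and 7.76-fold lower in tumours (limma adjusted p = 0.000195 and 1.49e-07). Hk2, the glycolytic hexokinase, was higher than in both, with 7299.6 ± 2413 in tumours, 622 ± 165 in P7 GNPC and 358 ± 58.9 in E16.5 DBS. Slc2a1, the glucose transporter of barrier endothelium, was 1357 ± 256 in tumours, 949.6 ± 51.5 in P7 GNPC and 2612 ± 308 in E16.5 DBS, with log2 differences of 0.49 and -0.95 that did not reach 2-fold. The difference from P7 GNPC is -0.03 when only probe sets without an _x, _s or _a suffix are used.

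The tumours differed among themselves in how much of these genes they carried. Tumour 3 was the highest of the 6 tumours for 5 of the 8 tested genes (Flt1, Tek, Cldn5, Esam and Eng) and tumour 4 for the other 3 (Kdr, Cdh5 and Vegfa). Tumour 3 was the highest tumour for 15.6% of all genes tested and tumour 4 for 14.2%. The highest over the lowest tumour was 1.87-fold for Cldn5, the least among the tested genes, 2.28-fold for Kdr and 3.64-fold for Cdh5, the most. The standard deviation of the log2 values over the tumours was 0.33 for Cldn5 to 0.54 for Tek, above the median of all genes, 0.27, for all 8. Tumour 3 was also the highest for 15 of 28 other endothelial markers, 10 of 12 basement membrane genes and 7 of 10 pericyte genes, and the lowest for 14 of 16 macrophage genes. Without tumour 3, the same number of members, 4, was called against P7 GNPC, and 5 against E16.5 DBS, Tek being the addition.

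**Figure D5:**
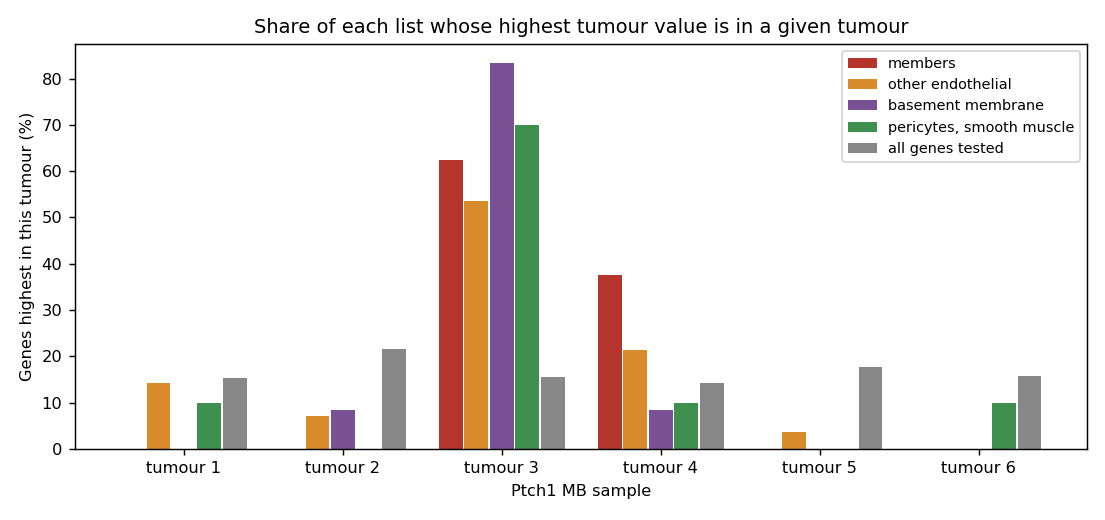
Share of the genes of each list (percent) whose highest tumour value was in a given tumour, for 4 lists and for all genes tested. Tumour 3 holds 62.5% of the members, 83.3% of the basement membrane genes and 70% of the pericyte genes, beside 15.6% of all genes.

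Finally, the genes most like the members were taken over the 13 samples. The measure was the Pearson correlation of log2 values with the mean of the standardised log2 values of the 7 tested members other than Vegfa. The closest 5 were Pdgfrb (r = 0.969), Mfge8 (0.968), Tafa5 (0.968), Trappc9 (0.959) and Ptp4a3 (0.957), and the samples share their group structure. Mfge8, a secreted glycoprotein with roles in vessels and in clearing dying cells, averaged 630.3 ± 245 in tumours, against 2684 ± 180.3 in P7 GNPC and 2729 ± 1073 in E16.5 DBS. The 5 closest to Vegfa were Depp1 (r = 0.939), Pcdhb17 (0.939), Pappa (0.938), Vcl (0.936) and D830012I24Rik (0.933). None of these is in the list for the other members. They were picked for likeness to Vegfa, a choice that favours the same order of the groups. Depp1 averaged 305 ± 253 in tumours, 488 ± 110.4 in P7 GNPC and 2099 ± 481 in E16.5 DBS.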

How the data were processed

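Total RNA of the 13 samples was hybridised to Affymetrix arrays, 1 per mouse, after 2-cycle labelling per the labels' protocols. The deposited values are linear intensities, with MAS5 named in the submitters' processing notes and no role or version given. In the files all arrays share 1 mean once the top and bottom 2% are trimmed, which is a global scaling by the authors. The labels' source names gave the groups, replicates are numbered by accession and unpaired, and the labels give no batch.

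Symbols come from the platform annotation. The pseudocount of 18 is the 20th percentile of all values. Fits used R 4.3.3 and limma 3.58.1 (lmFit, and eBayes with a trend), with 1 mean per group, 10 residual and 4.47 prior degrees of freedom, over 12270 genes, each by its probe set with the highest mean. The same model was fitted to 25894 probe sets. The fit and the motif search were tested on simulated data and on strand counts.

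The members and lists were chosen with earlier results of these data known, so list counts are descriptions. Besides the members, genes were drawn from each list per comparison, at most 4 called genes with the largest log2 differences. Not all genes so drawn are named, and some are also given in another comparison. Always named were Sox18, Slc2a1, Pdgfrb and Rgs5, and the 5 genes most like the members and like Vegfa. Genes picked after their values were seen are marked as such. Motifs were searched in RefSeq windows of 250 bases on both strands. Alternatives were other pseudocounts, filters, scalings, probe set rules and variance settings, and leaving out each sample.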

Additional observations from a re-analysis of the deposited data

Results flagged for a closer look

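Of 32 sets of 4 or 6 samples examined for a sample far from the rest, 3 held one, where chance gives about 1 in 20. Cldn5 was highest in tumour 3, at 1588.1, with the next tumour at 976.8. Pecam1 was also highest in tumour 3, at 36.4, with the next tumour at 12, both below the array median. Eng probe set 1432176_a_at was highest in E16.5 DBS sample 4, at 275.9, with the next brainstem sample at 217.8.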

How the results depend on the processing

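No paired analysis was possible because replicates are numbered by accession and the groups come from different mice. The calls of Kdr, Tek and Cldn5 against P7 GNPC, and of Kdr, Flt1 and Vegfa against E16.5 DBS, kept their direction and their side of the limits in all 25 alternatives. Leaving out each sample gave 4 members called against P7 GNPC, 3 to 5 against E16.5 DBS and 2 to 3 between the normal tissues, and 6 to 8 and 2 to 4 member probe sets in the comparisons with E16.5 DBS. With a pseudocount of 64, 4 member probe sets were called between tumours and E16.5 DBS, and 1 member and 1 member probe set between the normal tissues, where the mean of probe sets also gave 1 member. Of the within-array ratios, 7 passed with a pseudocount of 64, 5 without _x, _s or _a probe sets, 4 when adjusted over the ratios of tested members alone, an alternative chosen after seeing the data, and 0 to 6 with a sample left out (6 without E16.5 DBS sample 2). The adjusted p of 5 ratio tests stood at 0.05 exactly.

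The call of Eng was lost against P7 GNPC with a pseudocount of 64 (-0.91), equal medians (-0.92), quantile normalization (-0.94) or the mean of probe sets (-0.95), and against E16.5 DBS with a pseudocount of 64 (-0.87) or equal medians (-0.97), and both its probe sets have a suffix, so it had no value without suffixed ones. Tek against E16.5 DBS gained its call with a pseudocount of 1 (-1.02) or array weights (-1.10), and between the normal tissues without E16.5 DBS sample 3 (1.05). Between the normal tissues, Flt1 lost its call with the mean of probe sets (-0.97) and Vegfa with a pseudocount of 64 (-0.99). Scaling all arrays to the same median moved the median log2 difference of all genes against P7 GNPC from -0.03 to 0.21, with 1308 higher and 1376 lower in place of 809 and 1743. Against E16.5 DBS it moved from 0.00 to 0.12, and between the normal tissues from 0.04 to -0.08, with 852 higher and 1396 lower in place of 1071 and 1188. The cause of these moves was not tested.

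Signs turned mostly for values near 0, but also for Slc2a1 against P7 GNPC and for Cd99l2 between the normal tissues. Vegfa against P7 GNPC was 0.074 with equal medians, and Slc2a1 was -0.034 without suffixed probe sets, in place of 0.49. Between the normal tissues, with equal medians, quantile normalization and array weights in that order, Cdh5 was -0.071, -0.046 and -0.078 and Eng -0.047, -0.074 and -0.11. Eng was -0.16 with the mean of probe sets, and Pdgfrb was -0.018 with equal medians and -0.0041 with quantile normalization. Cd99l2, a junction gene called lower in P7 GNPC at -1.05 (limma adjusted p = 0.000344), was 0.27 with the mean of probe sets. With a sample left out, Cdh5 ran from -0.078 to 0.20 and Eng from -0.15 to 0.22. Esam over Cdh5 against E16.5 DBS was -0.058 with a pseudocount of 64, -0.025 with quantile normalization and -0.079 to 0.24 with a sample left out. Between the normal tissues, Eng over Cdh5 was -0.028 with quantile normalization and -0.19 to 0.25 with a sample left out, and Tie1 over Tek was -0.59 to 0.061 with a sample left out. Dim probe sets (Tie1, Pecam1 and Cdh5) are limited by signal over background.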

Other observations

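Genes of the blood-brain barrier did not move as 1 group. Of 18 tested, 7 were lower and 2 higher in tumours than in P7 GNPC, and 5 lower and 4 higher than in E16.5 DBS. For all genes tested, 14.2% were called lower and 6.59% higher against P7 GNPC, and 20.9% and 15.5% against E16.5 DBS. Slco1c1, a thyroid hormone transporter of brain vessels, averaged 596 ± 188 in tumours and 1918 ± 274 in P7 GNPC, 3.25-fold lower (limma adjusted p = 6.77e-05). Ocln, a tight junction protein, was 3.03-fold lower than in P7 GNPC and 3.13-fold lower than in E16.5 DBS, with a tumour mean of 57.2, below the array medians. Mfsd2a, the barrier's lipid transporter, averaged 307 ± 143 in tumours and 1124 ± 134 in E16.5 DBS, 3.71-fold lower (limma adjusted p = 3.11e-06). Slco1a4, another organic anion transporter of brain vessels, was higher, at 747 ± 188 in tumours and 135 ± 11.2 in E16.5 DBS, 4.91-fold (limma adjusted p = 3.43e-07).

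Genes of sprouting tip cells and of Notch signalling were mostly lower where they were called. Aplnr, the apelin receptor of sprouting vessels, averaged 192 ± 122 in tumours, 2246 ± 95.5 in P7 GNPC and 616 ± 76.3 in E16.5 DBS. It was 12.1-fold and 3.38-fold lower in tumours (limma adjusted p = 1.67e-06 and 0.000109). Unc5b, a netrin receptor of vessels and neurons, was 6.00-fold lower than in P7 GNPC (limma adjusted p = 1.12e-06). Jag1, a Notch ligand, was higher, at 667 ± 486 in tumours and 188 ± 24.2 in P7 GNPC, 2.83-fold (limma adjusted p = 0.00495). Of the 12 genes tested, 5 were lower and 1 higher than in P7 GNPC, and 6 lower and 2 higher than in E16.5 DBS. All genes tested gave 14.2% lower and 6.59% higher against P7 GNPC, and 20.9% and 15.5% against E16.5 DBS.

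Of 13 endothelial TGF-beta and BMP genes, 4 were lower in tumours than in P7 GNPC, 3 lower than in E16.5 DBS and 0 higher. Over all genes tested, 14.2% and 20.9% were called lower in these comparisons, and 6.59% and 15.5% higher. Id3, a BMP target, averaged 689 ± 209 in tumours and 1924 ± 21.7 in P7 GNPC, 2.84-fold lower (limma adjusted p = 0.000108). Bmp4, a ligand, averaged 42.4 ± 17.1 in tumours and 463 ± 95 in P7 GNPC, 8.19-fold lower. Bmp6, at 13.5 ± 11.3 in tumours, was like Bmp4 called lower in both comparisons. Both passed the intensity filter through the normal samples alone, so the fold of Bmp4 and the counts of this list are a description.

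Egln3, an oxygen-sensing hydroxylase, and Pgf, the placental growth factor that binds Flt1, were looked at after their values were seen. Egln3 read 413.4 in tumour 3 and 326 in tumour 4, and 61.9 to 174.5 in the other 4 tumours, the same 2 tumours that were highest for Kdr and Vegfa. Pgf read 824.2 in tumour 3, 431.3 in tumour 4 and 333.8 in tumour 2, and 51.1 to 143.2 in the other 3.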
